A study of Rattus norvegicus with 6 samples.

Results

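The 9 genes described here encode AP-1 transcription factors: the JUN family (Jun, Junb, Jund), the FOS family (Fos, Fosb, Fosl1, Fosl2) and the related factors Atf3 and Batf3. They were chosen by name from a table of 32623 rat genes, and each symbol occurred in 1 row. The libraries were made from primary ventricular myocardial cells of Sprague-Dawley rats at postnatal day 1 to 3, isolated once from several pooled animals. One group received a small interfering RNA against Mettl3 (siMettl3) for 24 h and then lipopolysaccharide (LPS), the bacterial endotoxin sensed by Toll-like receptor 4, for 6 h. The control cells received a negative-control RNA (siNC) for the same time and the same LPS treatment. There were 3 libraries in each group. All 6 libraries had LPS, and the values therefore do not measure the LPS response. Because the cultures share 1 isolate, p-values reflect only how much these samples vary, and that variation may be technical.

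AP-1 factors bind DNA as dimers through a basic region and a leucine zipper. JUN proteins can pair with each other or with FOS, ATF and BATF partners, whereas FOS proteins need a partner of another family. The dimers read the palindromic element TGANTCA and the longer cyclic AMP response element TGACGTCA. Fos, Jun and Atf3 are immediate early genes whose messages rise and decay fast after stress, growth factors or inflammatory signals, and in the heart AP-1 is known for its part in the hypertrophic and inflammatory responses. METTL3 is the methyltransferase that places N6-methyladenosine on messenger RNA.

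Total counts were 71202469 to 76668751 per library, and 37 mitochondrial genes took 11.9% to 13.1% of them. Mettl3 measured 10.3, 10.6 and 9.90 FPKM in siMettl3 cells, against 18.2, 17.2 and 15.3 FPKM in siNC cells. FPKM is the count scaled to gene length and library size, as the authors deposited it. The siMettl3 mean was 60.6% of the siNC mean, and the log2 fold change was -0.80 (SE 0.0779, edgeR adjusted p = 0.00274). By edgeR's quasi-likelihood test on the counts, at a Benjamini-Hochberg adjusted p under 0.05, 1205 of 16544 tested genes differed, 395 higher and 810 lower in siMettl3 cells. The number was 271, 596 and 623 when siMettl3 library 1, 2 or 3 was dropped, and 313, 559 and 889 when siNC library 1, 2 or 3 was dropped.

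All 9 AP-1 genes passed the filter on low counts, with 22 to 10174 counts per library. Of the 9, only Atf3 passed the threshold, and it was lower in siMettl3 cells. This is 1 of 9, where 7.28% of all tested genes were called (4.90% as lower), so the number of calls among the members lies near the background. In 4 members the libraries did not overlap between the groups. Jund, Jun and Fosb had higher values and Atf3 had lower values in siMettl3 cells. Among all tested genes the groups did not overlap in 30.9% (14.1% higher, 16.8% lower). The median log2 fold change of the 9 members was -0.058, against -0.0025 for all tested genes.

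**Figure D1:**
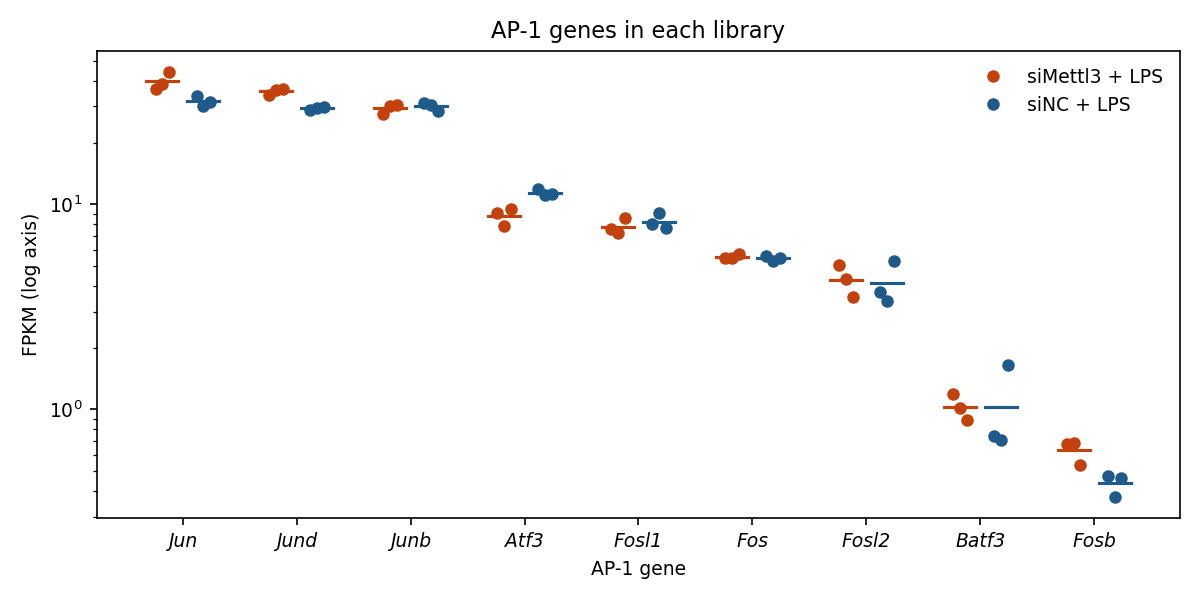
FPKM (log axis) of the 9 AP-1 genes in each of the 6 libraries, with siMettl3 left of siNC. Points are libraries and bars are group means. Atf3 lies at 7.80 to 9.53 FPKM in siMettl3 cells, below the 11.1 to 11.8 FPKM of siNC cells, and Fos stands at nearly one level.

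The JUN genes were the most abundant members per length. Jun (ENSRNOG00000026293, chromosome 5, 114011189 to 114014277, minus strand in the table, which states no genome build) encodes c-JUN, the strongest transactivator of the family. It measured 36.6, 38.6 and 44.2 FPKM in siMettl3 cells, against 33.8, 30.1 and 31.6 FPKM in siNC cells. Every siMettl3 library lay above every siNC library. The means were 39.8 ± 3.90 and 31.8 ± 1.85 FPKM (SD, n = 3 each), and the log2 fold change was 0.25 (SE 0.0812), which did not pass in edgeR (adjusted p = 0.115). DESeq2 on the same counts gave 0.25 with an adjusted p = 0.0455, where 6.12% of the tested genes were called higher. For limma on log2(FPKM + 1) the value was 0.31 with an adjusted p = 0.0547.

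Jund (ENSRNOG00000019568, chromosome 16, 20485029 to 20486707, minus strand) encodes JUND, the member known for steady expression in resting cells. It stood at 34.2, 36.2 and 36.6 FPKM in siMettl3 cells, against 28.8, 29.6 and 29.8 FPKM in siNC cells. The groups did not overlap, and the spread within each was the narrowest of the JUN genes, with coefficients of variation of 3.62% and 1.81%. Means were 35.7 ± 1.29 and 29.4 ± 0.533 FPKM. The edgeR log2 fold change was 0.20 (SE 0.0567, adjusted p = 0.0789). Jund was called higher by limma (0.27, adjusted p = 0.0233) and by DESeq2 (0.21, adjusted p = 0.0296), where 6.53% and 6.12% of the tested genes were called higher. It was also called by edgeR when libraries were scaled to their totals alone (0.28, adjusted p = 0.0286). Over all genes that scaling gave a median of 0.078, against -0.0025 with the trimmed-mean scaling used here.

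Junb (ENSRNOG00000042838, chromosome 19) encodes JUNB, a weaker activator that can oppose c-JUN on some promoters. It had 27.4, 30.0 and 30.6 FPKM in siMettl3 cells, against 31.2, 30.4 and 28.5 FPKM in siNC cells. The groups overlapped, with means of 29.3 ± 1.68 and 30.0 ± 1.43 FPKM and a log2 fold change of -0.11 (SE 0.0663, edgeR adjusted p = 0.348).

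Because ratios within a library do not depend on how libraries are scaled, Jun and Jund were also set against Junb. Jund over Junb was 1.2475, 1.2077 and 1.1972 in siMettl3 cells, against 0.923, 0.973 and 1.048 in siNC cells. Jun over Junb was 1.34, 1.29 and 1.44 in siMettl3 cells, against 1.08, 0.988 and 1.11 in siNC cells. Neither ratio overlapped between the groups, and each gave p = 0.10 in a 2-sided exact permutation test, the smallest p that 3 against 3 libraries allow. These pairs were chosen after the values had been seen.

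The windows around the starts of Jund and Junb are shown because these genes were close in level in siNC cells but only Jund separated by group. RefSeq (build GRCr8) gives such a window, 250 bases before to 50 bases after the start, for 6 of the 9 members in the table used here. Jund lies at chr16:18769722-18770021 on the minus strand and Junb at chr19:40080876-40081175 on the plus strand, both read 5′ to 3′ on the gene's strand. Capitals mark TGACGTCA or TGANTCA on either strand.
Jund: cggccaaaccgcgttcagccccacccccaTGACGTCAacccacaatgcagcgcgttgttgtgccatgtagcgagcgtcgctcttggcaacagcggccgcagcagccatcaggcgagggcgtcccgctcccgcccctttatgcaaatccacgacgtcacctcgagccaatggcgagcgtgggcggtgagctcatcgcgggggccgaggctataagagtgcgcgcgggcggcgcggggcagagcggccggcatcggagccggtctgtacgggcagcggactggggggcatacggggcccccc
Junb: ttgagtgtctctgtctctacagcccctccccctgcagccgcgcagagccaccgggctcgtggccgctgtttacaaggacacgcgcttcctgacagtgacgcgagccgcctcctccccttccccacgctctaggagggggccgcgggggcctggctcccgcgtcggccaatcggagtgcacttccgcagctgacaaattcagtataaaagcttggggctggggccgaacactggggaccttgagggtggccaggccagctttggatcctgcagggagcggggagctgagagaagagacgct
The Jund window held 1 copy of TGACGTCA, from -221 to -214 relative to the start. The letters TGACGTCA occurred in 1.83% and TGANTCA in 7.33% of all 33469 windows of this length. None of the Fosb, Fosl1, Fosl2, Junb and Batf3 windows held either. Junb and Jund each held CCAAT, from -85 to -81 and from -86 to -82, a motif present in 37.5% of windows. Junb also held TATAAA from -49 to -44 (14.2% of windows), and Jund held GGGCGG 3 times (33.1% of windows held it at least once). A match of letters is a description and not a measured site.

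The FOS genes were lower in level than the JUN genes, and none of the 4 passed. Fos (ENSRNOG00000008015, chromosome 6) encodes c-FOS, the prototype partner of c-JUN. It measured 5.47, 5.44 and 5.72 FPKM in siMettl3 cells, against 5.59, 5.31 and 5.47 FPKM in siNC cells. These values overlapped and had the smallest relative spread among the FOS genes, with coefficients of variation of 2.74% and 2.56%. The log2 fold change was -0.058 with an SE of 0.0902 (edgeR adjusted p = 0.749), and limma and the scaling to library totals put its sign at the other side of 0.

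Fosb (ENSRNOG00000046667, chromosome 1, 80214494 to 80221710, minus strand), which encodes another activating FOS protein, was the least abundant member per length. It had 0.682, 0.687 and 0.535 FPKM in siMettl3 cells, from 196, 198 and 150 counts. In siNC cells it had 0.472, 0.376 and 0.461 FPKM, from 140, 109 and 127 counts. The siMettl3 libraries lay above the siNC libraries. Its log2 fold change of 0.46 (SE 0.186) had the largest size of the 9, and it did not pass (edgeR adjusted p = 0.182, DESeq2 adjusted p = 0.195). It fell under the mean of 1 FPKM needed for the limma fit.

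Fosl1 and Fosl2 encode FRA-1 and FRA-2, which bind DNA with JUN partners but lack the strong activation domain of c-FOS. Fosl1 measured 7.54, 7.26 and 8.57 FPKM in siMettl3 cells, against 7.99, 9.07 and 7.63 FPKM in siNC cells (log2 fold change -0.16, SE 0.110, edgeR adjusted p = 0.427). Fosl2 measured 5.04, 4.31 and 3.52 FPKM in siMettl3 cells, against 3.73, 3.37 and 5.26 FPKM in siNC cells (-0.022, SE 0.221, edgeR adjusted p = 0.966). Both genes overlapped between the groups. Fosl2 varied more within groups than the other FOS genes, with coefficients of variation of 17.8% and 24.3%, and siNC replicate 3 was its highest library. Its log2 fold change was 0.11 without siMettl3 replicate 3 and 0.19 without siNC replicate 3, so its sign turned.

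Atf3 (ENSRNOG00000003745, chromosome 13, 109817728 to 109849632, minus strand) encodes a stress-induced factor that represses many inflammatory genes downstream of Toll-like receptors. It measured 9.05, 7.80 and 9.53 FPKM in siMettl3 cells, against 11.8, 11.1 and 11.2 FPKM in siNC cells, from 2006, 1739 and 2068 counts against 2711, 2475 and 2385 counts. Every siMettl3 library lay below every siNC library. The means were 8.79 ± 0.891 and 11.4 ± 0.403 FPKM, so the siMettl3 mean was 77.5% of the siNC mean. The log2 fold change was -0.45 (SE 0.0878, edgeR adjusted p = 0.0273). limma gave -0.34 (adjusted p = 0.0437) and DESeq2 -0.44 (adjusted p = 4.84e-04), where 4.40% and 8.43% of the tested genes were called lower.

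The Atf3 call rested on the full set of libraries. The edgeR adjusted p was 0.0886 without siMettl3 replicate 1, and 0.118, 0.0725 and 0.0569 without siNC replicates 1, 2 and 3, so the call was lost in these 4 fits. It was 0.0436 and 0.0420 without siMettl3 replicates 2 and 3. The log2 fold change stayed between -0.50 and -0.36 in the 6 fits.

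Batf3 (ENSRNOG00000003716, chromosome 13) encodes a small factor with a leucine zipper and no activation domain of its own, known for its role in dendritic cells. It had 1.19, 1.02 and 0.889 FPKM in siMettl3 cells, against 0.742, 0.707 and 1.65 FPKM in siNC cells. At 27 to 37 counts in siMettl3 libraries and 22 to 49 counts in siNC libraries, its log2 fold change was -0.070 with an SE of 0.455 (edgeR adjusted p = 0.947). The coefficients of variation were 14.5% in siMettl3 cells and 51.7% in siNC cells. siNC replicate 3 stood above the other libraries, and without it the log2 fold change was 0.44. Without siMettl3 replicate 3 it was 0.035.

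**Figure D2:**
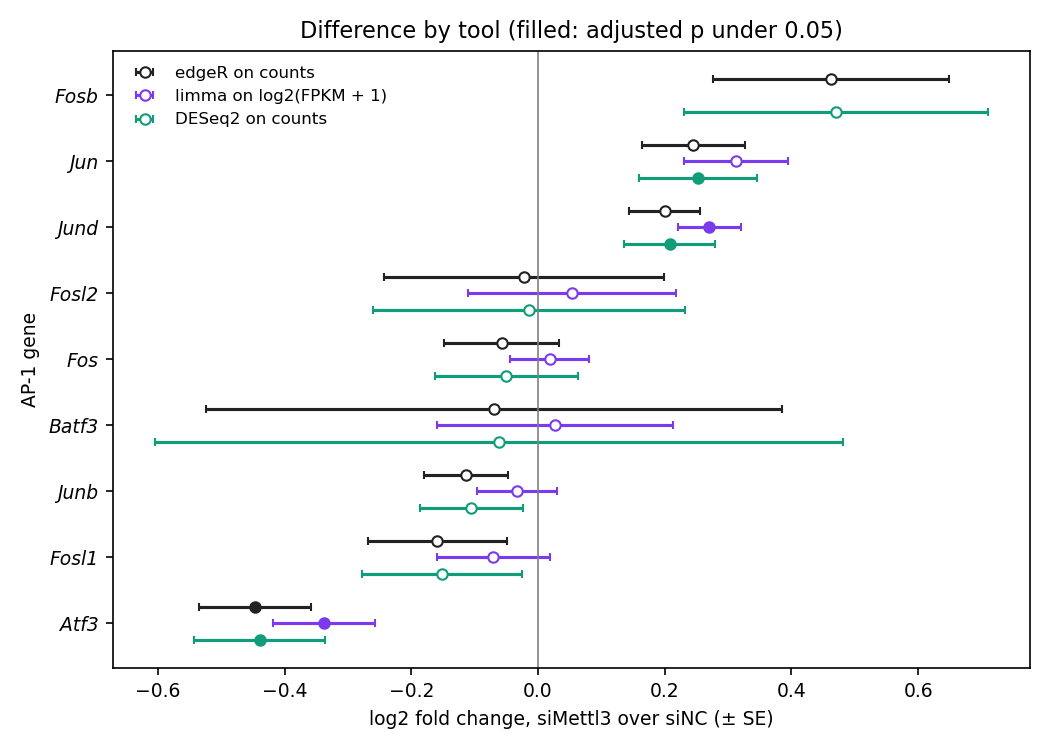
Log2 fold change of siMettl3 over siNC with its SE for the 9 AP-1 genes, by edgeR, limma and DESeq2. Filled points have an adjusted p under 0.05: Atf3 is filled for each tool, Jund for limma and DESeq2, and Jun for DESeq2.

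**Figure D3:**
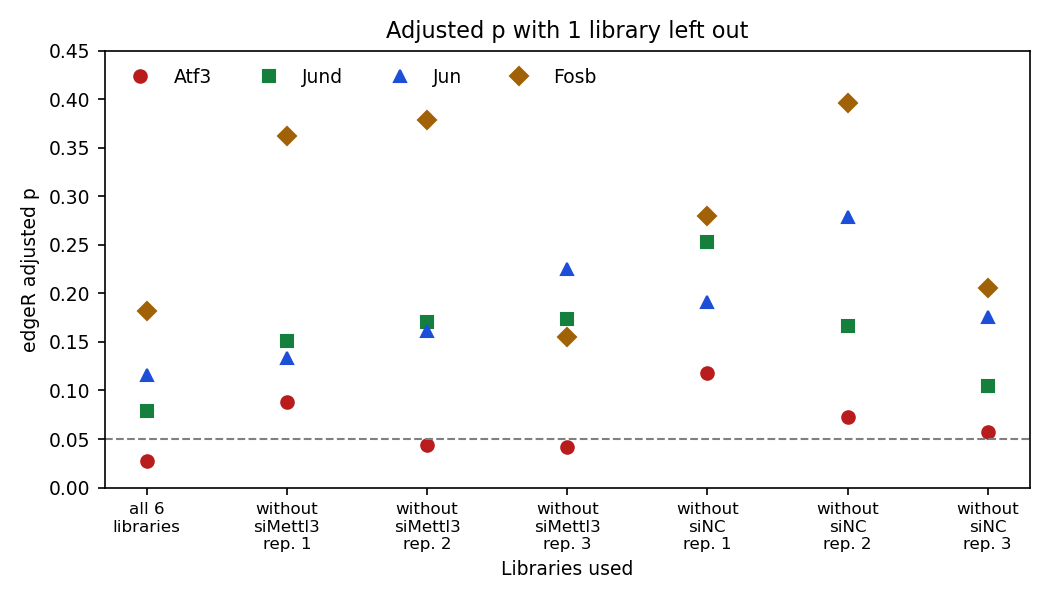
The edgeR adjusted p of Atf3, Jund, Jun and Fosb with the full set and with 1 library left out, with a dashed line at 0.05. Atf3 lies between 0.0420 and 0.118 in the reduced fits, and the other 3 genes stay above the line throughout.

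In siMettl3 cells the order of levels was Jun, Jund, Junb, Atf3, Fosl1, Fos, Fosl2, Batf3 and Fosb. The library ranges of Jun and Jund overlapped, as did those of Atf3 and Fosl1, and the other neighbours were apart. In siNC cells the order was Jun, Junb, Jund, Atf3, Fosl1, Fos, Fosl2, Batf3 and Fosb. There the JUN genes overlapped as neighbours, and Atf3 stood clear of Fosl1.

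Within the JUN family, Junb held 27.9%, 28.6% and 27.5% of the summed FPKM in siMettl3 cells, against 33.3%, 33.8% and 31.7% in siNC cells. Its share differed by -4.92 percentage points and did not overlap between the groups. Jun held 37.9 ± 1.51% and 34.8 ± 1.33%, again without overlap, and Jund 34.1 ± 1.05% and 32.3 ± 1.34%, with overlap (siMettl3 and siNC, SD, n = 3 each). The shares of a family are tied to each other, so a share also moves when the other genes move. The FPKM of Junb itself overlapped between the groups, and its siMettl3 mean was 97.7% of its siNC mean. In the FOS family Fosl1 held 42.7 ± 3.54% and 45.2 ± 4.74%, Fos 30.4 ± 1.05% and 29.9 ± 1.32%, and Fosl2 23.5 ± 3.95% and 22.5 ± 4.86%. Fosb held 3.48 ± 0.501% in siMettl3 cells and 2.39 ± 0.296% in siNC cells, without overlap. The summed FOS genes amounted to 17.5 ± 1.39% of the summed JUN genes in siMettl3 cells and 20.01 ± 0.999% in siNC cells, with overlap. Over these 8 comparisons the lowest 2-sided exact permutation p was 0.10, the smallest possible, for Jun, Junb and Fosb (adjusted p = 0.267 each), so none could reach 0.05.

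**Figure D4:**
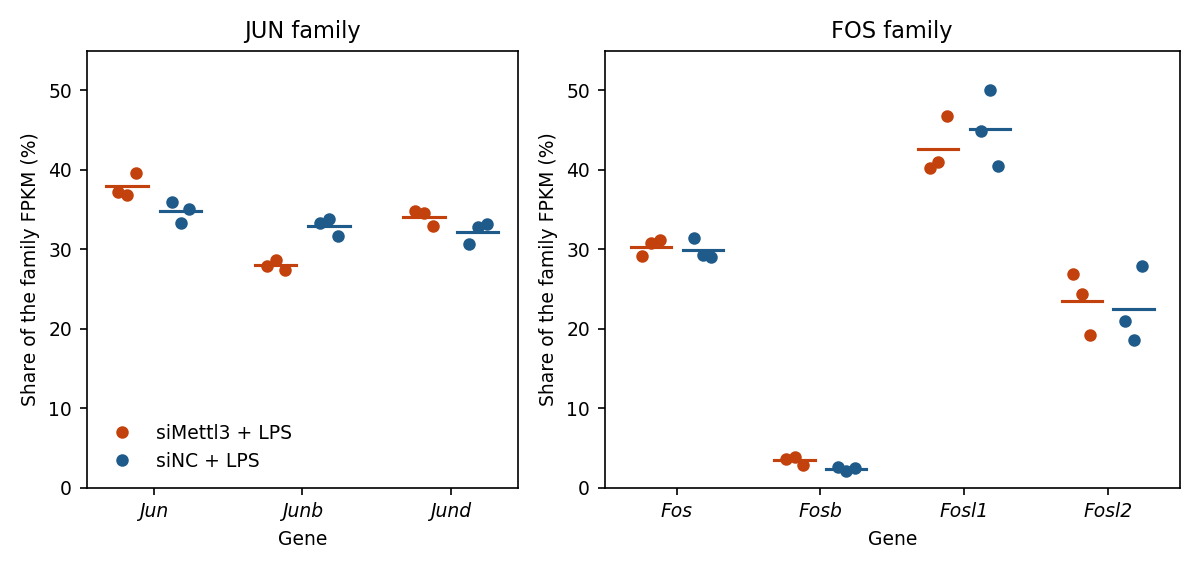
Share (%) of each gene in the summed FPKM of the JUN family (left panel) and of the FOS family (right panel), with siMettl3 left of siNC. Points are libraries and bars are group means. Junb lies at 27.5% to 28.6% in siMettl3 cells and 31.7% to 33.8% in siNC cells, while its FPKM overlapped between the groups.

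The genes whose profile over the 6 libraries was most like that of Atf3 were Tnfsf18, Nmi and Gbp2. Likeness was the root-mean-square difference between centred log2 profiles of counts scaled to library size, taken over 9228 other genes that averaged 5 FPKM or more. It was 0.030, 0.030 and 0.035, against a median of 0.257. Tnfsf18, a ligand of the tumour necrosis factor superfamily, measured 4.59 ± 0.461 FPKM in siMettl3 cells and 5.83 ± 0.150 FPKM in siNC cells. Nmi, which binds STAT and MYC proteins, measured 17.0 ± 1.498 FPKM in siMettl3 cells and 22.0 ± 0.888 FPKM in siNC cells. Gbp2, a guanylate-binding GTPase, measured 122 ± 15.2 FPKM in siMettl3 cells and 157 ± 5.87 FPKM in siNC cells. Because these genes were selected for following Atf3 over the same libraries, their difference between the groups restates that selection and was given no test.

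Among 11 tested genes of further AP-1 dimer partners (the ATF, BATF, JDP and MAF factors) 1 fell and 0 rose, which is 9.09% beside 7.28% of all tested genes and thus near the background. The list median was -0.16. The gene that fell was Mafk, a small MAF protein that lacks an activation domain. It measured 31.1, 30.8 and 31.5 FPKM in siMettl3 cells, against 40.0, 37.7 and 37.6 FPKM in siNC cells. The groups were well apart, with a log2 fold change of -0.38 (SE 0.0519, edgeR adjusted p = 0.00866). The adjusted p was 0.0502 without siMettl3 replicate 1 and stayed under 0.05 without each of the other libraries. Its relative Mafg did not pass, at 15.9 ± 1.94 FPKM in siMettl3 cells and 11.8 ± 1.18 FPKM in siNC cells (0.35, edgeR adjusted p = 0.0940). Batf2, the relative of Batf3, did not pass either (-0.56, edgeR adjusted p = 0.138). Mafg and Batf2 were chosen after their values had been seen.

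Of 21 tested genes of the MAP kinase cascade, whose kinases phosphorylate JUN, FOS and ATF proteins, 1 rose and 1 fell, with a list median of 0.015. The share called was 9.52%, again near the 7.28% of all tested genes. Mapk8, which encodes the JUN N-terminal kinase JNK1, measured 7.18, 7.72 and 6.97 FPKM in siMettl3 cells, against 9.13, 9.46 and 9.81 FPKM in siNC cells. Its log2 fold change was -0.46 (SE 0.0838, edgeR adjusted p = 0.0212). The adjusted p was 0.0407 without siMettl3 replicate 2. It was 0.0878 and 0.0717 without siMettl3 replicates 1 and 3, and 0.0697, 0.0649 and 0.0518 without siNC replicates 1, 2 and 3. Mapk9, which encodes the related kinase JNK2, stood at 15.7 ± 0.929 FPKM in siMettl3 cells and 15.2 ± 0.735 FPKM in siNC cells (-0.028, edgeR adjusted p = 0.834), and was chosen after its values had been seen.

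Map3k1, an upstream kinase of the JNK branch, measured 2.63, 3.21 and 2.61 FPKM in siMettl3 cells, against 1.81, 1.77 and 2.10 FPKM in siNC cells. It rose by a log2 fold change of 0.49 (SE 0.118), close to the threshold (edgeR adjusted p = 0.0492). It kept the call without siNC replicate 3 (0.0496) and lost it without siMettl3 replicates 1, 2 and 3 (0.107, 0.121 and 0.0831) and siNC replicates 1 and 2 (0.166 and 0.137).

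Among 12 tested transcriptional regulators that act on the Fos and Jun promoters, 1 fell and 0 rose, with a list median of 0.091. This is 8.33% of the list, near the 7.28% of all tested genes. Elk3, an ETS factor that pairs with serum response factor, was lower at 11.9 ± 0.259 FPKM in siMettl3 cells and 13.7 ± 0.619 FPKM in siNC cells (log2 fold change -0.29, SE 0.0619, edgeR adjusted p = 0.0367). limma did not call it (adjusted p = 0.0734). It kept the edgeR call without siNC replicate 3 (0.0435), and the adjusted p was 0.117, 0.113 and 0.101 without siMettl3 replicates 1, 2 and 3 and 0.144 and 0.115 without siNC replicates 1 and 2. Srf, which encodes serum response factor itself, was at 26.1 ± 1.32 FPKM in siMettl3 cells and 21.6 ± 0.560 FPKM in siNC cells and did not pass (0.19, edgeR adjusted p = 0.0788). limma called Srf higher (adjusted p = 0.0337) and no other gene of this list. Srf was chosen after its values had been seen.

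Of 11 tested genes of AP-1 mRNA and protein turnover, 0 passed in edgeR, in limma and in DESeq2. Zfp36 and Fbxw7 are named here after their values had been seen, and neither passed. Zfp36, which encodes the AU-rich element binding protein tristetraprolin, measured 29.5 ± 0.438 FPKM in siMettl3 cells and 30.9 ± 1.96 FPKM in siNC cells (log2 fold change -0.15, edgeR adjusted p = 0.195). Fbxw7, the ubiquitin ligase subunit that targets phosphorylated JUN, measured 5.92 ± 0.343 FPKM in siMettl3 cells and 4.76 ± 0.220 FPKM in siNC cells (0.24, edgeR adjusted p = 0.117).

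Textbook AP-1 target genes numbered 25, and 6 fell and 1 rose, which is 28.0% of the list beside 7.28% of all tested genes. This list, like the other lists, was chosen with earlier results of these data known, so its share describes the list and is no test of it. The list median was -0.19. Ptgs2, which encodes the inducible cyclooxygenase, measured 8.10, 8.23 and 7.97 FPKM in siMettl3 cells, against 12.3, 11.4 and 12.3 FPKM in siNC cells. Its siMettl3 values all lay below the siNC values, with means of 8.10 ± 0.130 FPKM in siMettl3 cells and 12.0 ± 0.515 FPKM in siNC cells (log2 fold change -0.65, edgeR adjusted p = 0.00228). Hmox1, the haem-degrading enzyme, rose to 52.4 ± 3.31 FPKM in siMettl3 cells, against 31.3 ± 1.45 FPKM in siNC cells (0.66, edgeR adjusted p = 0.00335).

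Edn1, the vasoconstrictor endothelin 1, fell by 0.68 on the log2 scale (edgeR adjusted p = 0.00866). The secreted matrix protein Spp1 (osteopontin) fell by 0.56 (adjusted p = 0.0154), the macrophage elastase Mmp12 by 0.90 (adjusted p = 0.0157) and the cytokine Il6 by 0.88 (adjusted p = 0.0196, edgeR each). Ptgs2, Hmox1 and Edn1 kept their calls with any 1 library left out. Without siMettl3 replicate 1, 4 of the 7 calls remained, as they did without siNC replicate 1, and Il6 was also lost without siNC replicate 2 (0.0636). Ccnd1, the G1 cyclin, stood at 45.4 ± 0.437 FPKM in siMettl3 cells and 44.1 ± 1.11 FPKM in siNC cells (-0.037, edgeR adjusted p = 0.713), and the collagenase Mmp13 at 0.618 ± 0.0812 FPKM in siMettl3 cells and 0.522 ± 0.0742 FPKM in siNC cells (0.17, edgeR adjusted p = 0.677). Il6, Ccnd1 and Mmp13 were chosen after their values had been seen.

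Markers of other cell types moved in the same comparison. The share called was 69.2% for macrophage and leukocyte, 61.5% for fibroblast and 41.7% for smooth muscle and pericyte markers. It was 22.2% for endothelial and 14.3% for cardiomyocyte markers, which rest on 2 calls each. Of all tested genes 7.28% were called (4.90% lower, 2.39% higher). Of 13 macrophage and leukocyte markers 9 fell and 0 rose, and their summed level was 41.5 to 54.2 FPKM in siMettl3 cells and 79.9 to 97.9 FPKM in siNC cells. The 6 with the smallest adjusted p were C1qb, Lyz2, C1qa, Cd14, Adgre1 and Cd68. The complement gene C1qa measured 1.93 ± 0.318 FPKM in siMettl3 cells and 5.54 ± 1.35 FPKM in siNC cells (log2 fold change -1.59, edgeR adjusted p = 0.00896). Of 13 fibroblast markers 8 fell and 0 rose, with sums of 944 to 1008 FPKM in siMettl3 cells and 1535 to 1607 FPKM in siNC cells. The first 6 by adjusted p were Fbln2, Col1a1, Col3a1, Postn, Lum and Islr, and the collagen gene Col1a1 had 752 ± 30.2 FPKM in siMettl3 cells and 1196 ± 17.6 FPKM in siNC cells (-0.75, edgeR adjusted p = 0.00124). Of 12 smooth muscle and pericyte markers 5 fell and 0 rose, with sums of 3411 to 3674 FPKM in siMettl3 cells and 4602 to 5203 FPKM in siNC cells. The 5 were Acta2, Cnn1, Myh11, Tagln and Lmod1. Of 9 tested endothelial markers 2 rose (Cdh5 and Tek) and 0 fell, with sums of 60.1 to 65.1 FPKM in siMettl3 cells and 64.0 to 68.8 FPKM in siNC cells. Most of the endothelial sum was Eng, which did not pass (-0.28, edgeR adjusted p = 0.0808). Eng had 39.4 ± 2.94 FPKM in siMettl3 cells and 45.3 ± 3.14 FPKM in siNC cells, and was chosen after its values had been seen. Col1a1 likewise made up most of the fibroblast sum. Of 14 cardiomyocyte markers 2 fell in edgeR (Myh7 and Actc1) and 0 rose. The number of calls depended on the tool and filter. limma called 0 (adjusted p = 0.0617 and 0.0845), as did edgeR with no filter on low counts and with the replicate number as a block. DESeq2 called 5 lower and 0 higher, and edgeR with the expression filter of the limma fit called 3 lower and 0 higher. The sums of the 14 cardiomyocyte markers were 15598 to 17910 FPKM in siMettl3 cells and 17265 to 19512 FPKM in siNC cells. With 1 library left out the calls numbered 4 to 8 for macrophage and leukocyte, 4 to 6 for fibroblast, 3 to 4 for smooth muscle and pericyte, 0 to 1 for endothelial and 0 to 3 for cardiomyocyte markers. None of these markers was at a count of 0 in every library. In bulk RNA fewer cells of a type and less RNA per cell cannot be told apart, and the part of these shifts in the values of Atf3 and of the AP-1 targets was not tested.

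**Figure D5:**
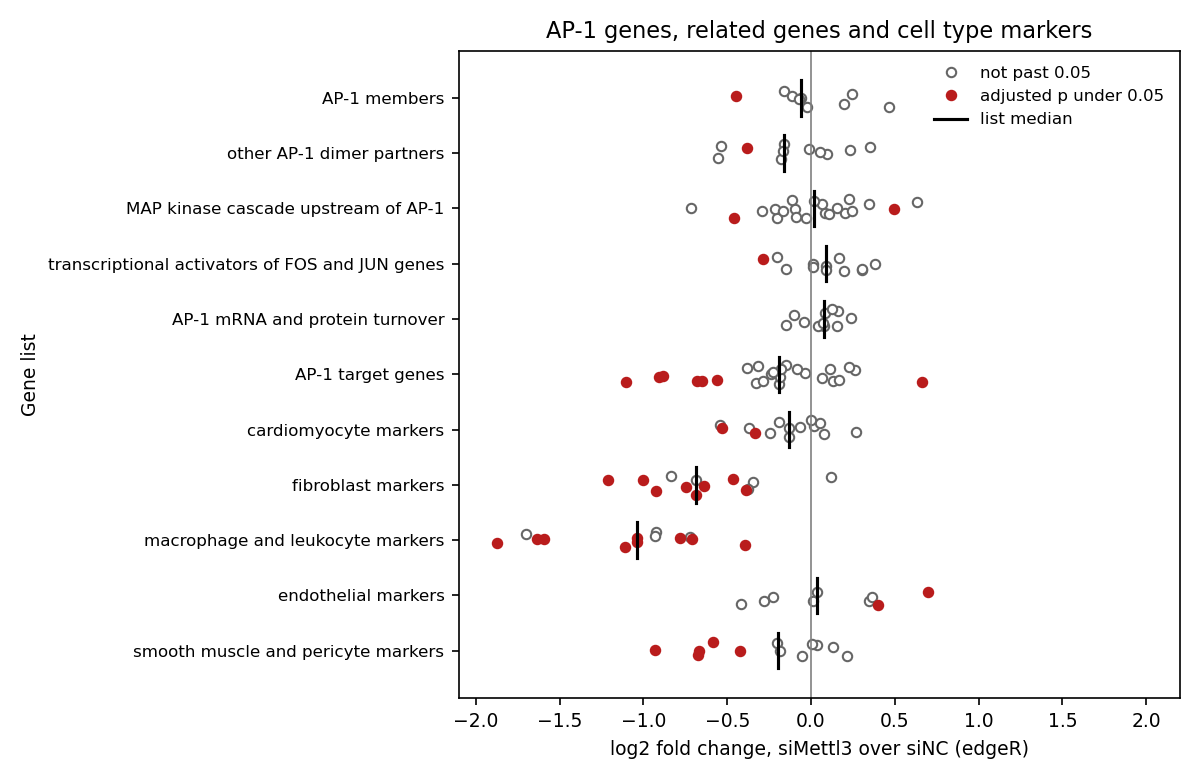
Log2 fold change (edgeR) of siMettl3 over siNC for the members of each list, filled where the adjusted p is under 0.05, with a bar at the list median. The AP-1 members centre on -0.058, and the macrophage and leukocyte markers on -1.04.

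Gene length also moved with the difference. Genes above 1 FPKM on average whose models were within 1.2-fold of the member's length had a median log2 fold change of -0.028 around Jund, 0.026 around Jun and 0.016 around Atf3. It was -0.11 around Fosl2 and -0.18 around Batf3, whose models were 0.785 and 0.420 kb long. The values of Jund, Jun and Atf3 themselves were 0.20, 0.25 and -0.45. A median does not give the spread of single genes, and the part of gene length in these values was not tested.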

How the data were processed

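RNA-seq was analysed for 6 libraries, 3 siMettl3 and 3 siNC, each with LPS. Per the file headers, the table holds raw counts per gene and FPKM, both deposited by the authors. No aligner role, quantifier, build or annotation release is given in the sources used here, and per the submitters' processing notes Bowtie (0.12.2) and a mouse genome (mm8) are named with no role, although the gene identifiers are of the rat Ensembl type. FPKM of 0.0001 stood where the count was 0. In 14527 genes, 98.7% of values had a count to FPKM ratio within 1% of constant after library totals were divided out.

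Counts were tested with edgeR 4.0.16 (filterByExpr defaults, minimum count 10, trimmed-mean scaling, quasi-likelihood test, 2-sided) in R 4.3.3. P-values were Benjamini-Hochberg adjusted over all 16544 genes, with a threshold of 0.05. The SE was derived from the F statistic. Alternatives were limma 3.58.1 on log2(FPKM + 1) or log2(FPKM + 0.1) where the mean reached 1 FPKM, DESeq2 1.42.0, other scalings and filters, the replicate number as a block and leaving out each library. The edgeR script was tested on simulated counts in which 200 genes were changed. For fold changes of 1.25, 1.50, 2.00 and 3.00 it recovered 2.08%, 28.6%, 49.0% and 77.6% of the changed genes. These shares are of the 48, 49, 49 and 49 changed genes that passed the filter on low counts. Of its 89 calls at the threshold of 0.05, 12 were false, which is a share above 0.05. A gene that did not pass is therefore not shown to be unchanged, and a gene that passed may be a false call. Members and lists were chosen with earlier results of these data known. Named genes were the 9 members, Mettl3, up to 6 called members of each other list, and the 3 genes most like a called member. Mafg, Batf2, Mapk9, Srf, Zfp36, Fbxw7, Il6, Ccnd1, Mmp13 and Eng fall outside this rule and were chosen after their values had been seen. Of the called AP-1 targets, 1 is not reported here by name. Cell type markers are given as counts and sums, with values for C1qa and Col1a1 as examples and for Eng as the largest part of its sum. Of the list symbols, those for Mrtfb, Ttn, Col1a2 and Pecam1 were not analysed here.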

Additional observations from a re-analysis of the deposited data

How the results depend on the processing

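The Atf3 difference kept its direction in the 16 fits run. The number of AP-1 members called, 1 in the fit reported, was 2 with limma at either pseudocount and with scaling to library totals (Atf3 lower, Jund higher), 3 with DESeq2 (Jun as well) and 0 with the replicate number as a block. It was 0 to 1 with 1 library left out. Of all tested genes, limma on log2(FPKM + 1) called 10.9% and DESeq2 14.5%. With log2(FPKM + 0.1) limma called 1419 of 13105 genes, and edgeR with scaling to totals called 1526 of 16544. The number of genes called was 2407 with DESeq2, 61 with the block and 271 to 889 with 1 library left out. Limma split its 1432 calls as 856 higher and 576 lower, and scaling to totals its 1526 as 931 and 595, against 395 and 810. Members not overlapping numbered 4 to 7 with 1 library left out, where 37.7% to 47.8% of all tested genes did not overlap. The 7 came without siMettl3 replicate 3, where that share was 41.0%. Called members of the other lists, 37 in all, were 5 with the block and 15 to 30 with 1 library left out. The share of Fosb differed by 2.68 percentage points in counts, against 1.09 in FPKM. With 1 library left out the share differences were 2.22 to 3.67 (Jun), -5.53 to -4.49 (Junb), 1.06 to 2.43 (Jund), 0.886 to 1.37 (Fosb), -0.0108 to 1.19 (Fos), -4.80 to -0.0684 (Fosl1), -0.980 to 3.70 (Fosl2) and -3.34 to -2.04 (FOS to JUN) percentage points.

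The sign of Fos, Fosl2 and Batf3 changed, in each case without a call. With limma on log2(FPKM + 1) the values were 0.018, 0.054 and 0.027, with log2(FPKM + 0.1) 0.021, 0.067 and 0.086, and with scaling to totals 0.022, 0.058 and 0.010. Batf3 was 0.030 with the block. With 1 library left out Fosl2 ranged over -0.15 to 0.19 and Batf3 over -0.28 to 0.44. Without siMettl3 replicate 3 Fosl2 was 0.11 and Batf3 0.035, and without siNC replicate 3 they were 0.19 and 0.44. Deviations from the group mean correlated at -0.035, -0.28 and -0.11 between same-numbered libraries, across 13057 genes. Between libraries of different number the correlations were -0.18 to 0.26. With 3 libraries per group the deviations are tied by their shared mean, so this cannot decide whether the numbers pair the samples. The cause of the sign changes was not tested. With fewer libraries the power is lower by construction. The members with the fewest counts were Batf3 (22 to 49 per library) and Fosb (109 to 198).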
